A study of Arabidopsis thaliana with 6 samples.

Results

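Glutathione S-transferases are enzymes that join the tripeptide glutathione to reactive, electrophilic compounds. The conjugates they form are carried into the vacuole by ABC transporters of the C group. Plants hold large tau (GSTU) and phi (GSTF) classes and smaller lambda (GSTL), theta (GSTT) and zeta (GSTZ) classes, and several tau and phi genes are known for rapid transcript rises after wounding, pathogen attack or oxidative stress. The family described here is every gene whose name in the deposited expression table is GST followed by a class letter U, F, L, T or Z and a number. That rule took 45 of 27655 genes, of which 27 are tau, 11 phi, 3 lambda, 3 theta and 1 zeta. Genes that the table names with an added AT prefix, which are ATGSTF4, ATGSTF5, ATGSTU21 and ATGSTZ1, fall outside it.

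The transcripts were measured by RNA sequencing in Arabidopsis thaliana of the Col-0 accession, a wild-type strain. Seedlings 14 days old, grown on MS agar in long days, were either submerged in distilled water for 1 h (3 libraries) or left in air (3 libraries). No mutant or transgene is named for either group. The labels call the samples replicates without saying whether they came from separate cultures, and the p-values cover only the spread from sample to sample, which may be technical. In bulk RNA, fewer cells of a type and less RNA per cell cannot be told apart. The libraries held 29673924, 22220014 and 20041244 counts in submerged seedlings and 25900177, 20564425 and 20287275 counts in air.

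Pairs of neighbouring genes carry much of what follows, so the 250 bases before the start of GSTF7, GSTF10, GSTF9 and GSTU17 are shown first. GSTF7 rose under water, GSTF10 and GSTF9 were called in opposite directions, and GSTU17 was called against its neighbour GSTU18. The windows are from the TAIR10.1 assembly, at chr1:659981-660230 (minus strand) for GSTF7, chr2:13141040-13141289 (plus strand) for GSTF10, chr2:13138632-13138881 (plus strand) for GSTF9 and chr1:3398359-3398608 (minus strand) for GSTU17. They are written on the strand of the gene, 5′ to 3′. Capitals mark any match, on either strand, to the TGACG core of the as-1 element that TGA factors bind, the W box (TTGACC or TTGACT) that WRKY factors bind, the G box (CACGTG), the GCC box (GCCGCC) or CGCGT.
GSTF7: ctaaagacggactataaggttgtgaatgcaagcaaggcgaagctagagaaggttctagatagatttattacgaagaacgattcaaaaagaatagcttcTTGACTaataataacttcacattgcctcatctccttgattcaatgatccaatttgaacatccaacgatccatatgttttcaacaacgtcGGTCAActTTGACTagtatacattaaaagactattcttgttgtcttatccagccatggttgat
GSTF10: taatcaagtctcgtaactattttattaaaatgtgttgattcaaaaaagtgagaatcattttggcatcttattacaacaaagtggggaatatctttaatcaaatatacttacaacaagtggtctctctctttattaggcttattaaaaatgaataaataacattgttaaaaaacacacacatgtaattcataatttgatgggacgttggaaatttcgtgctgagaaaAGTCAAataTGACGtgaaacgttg
GSTF9: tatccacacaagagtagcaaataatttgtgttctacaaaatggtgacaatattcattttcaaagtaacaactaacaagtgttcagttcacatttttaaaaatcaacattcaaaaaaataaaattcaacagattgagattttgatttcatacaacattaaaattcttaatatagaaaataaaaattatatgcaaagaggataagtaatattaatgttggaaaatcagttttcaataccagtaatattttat
GSTU17: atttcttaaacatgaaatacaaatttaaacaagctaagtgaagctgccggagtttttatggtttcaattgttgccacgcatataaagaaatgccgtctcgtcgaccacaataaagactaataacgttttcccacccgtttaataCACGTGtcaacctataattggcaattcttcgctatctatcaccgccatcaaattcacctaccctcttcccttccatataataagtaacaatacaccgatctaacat

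The GSTF7 window carries the W box 3 times, and the GSTU17 window carries a G box. GSTF10 carries a W box and the TGACG core, while the window of GSTF9 holds none of these motifs. Over the family, the TGACG core was in the windows of 15 of 45 genes (33.3%), against 18.6% of all 27443 promoters of that length. The W box was in 22 members (48.9%, against 28.4% of all promoters), the G box in 4 (8.89%, against 6.49%), the GCC box in 3 (6.67%, against 1.87%) and CGCGT in 2 (4.44%, against 6.87%). Among the 9 members that rose, described below, 3 windows held the TGACG core and 4 a W box. Among the 11 that fell, 3 held the TGACG core and 3 a W box. Of the 18 members that did not pass, 6 held the TGACG core and 10 a W box, and of the 7 untested members 3 and 5 did. Some member windows hold exon sequence of other annotated genes. Among these are 2 of the 4 windows with a G box, those of GSTU18 (exons of GSTU17) and GSTL3 (exons of GSTL1). How often this holds among all promoters was not counted. These matches describe letters in the windows and are not measured binding sites.

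After 1 h under water the family did not move one way. Phi genes, 10 of the 38 tested members, made up most of the rises, among them GSTF6, GSTF13, GSTF10 and GSTF7. Tau genes, led by GSTU5, GSTU16 and GSTU20, made up most of the falls, but they were also 22 of the 38 tested members. Of the 38 members with enough counts to test, 9 rose, 11 fell and 18 did not pass an adjusted p of 0.05 in edgeR's quasi-likelihood test. The 20 called members are 52.6% of those tested, against 55.0% of all 19495 genes tested. The share called is therefore close to that of all genes. By direction, 28.8% of all genes tested rose and 26.1% fell. Changes of at least 2-fold were called in 6 members that rose and 3 that fell, against 9.69% and 5.59% of all genes tested. Submerged and air libraries did not overlap for 20 of the 38 members, and for 62.1% of all genes tested. The median log2 fold change was -0.03 over the tested members and 0.01 over all genes.

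**Figure D1:**
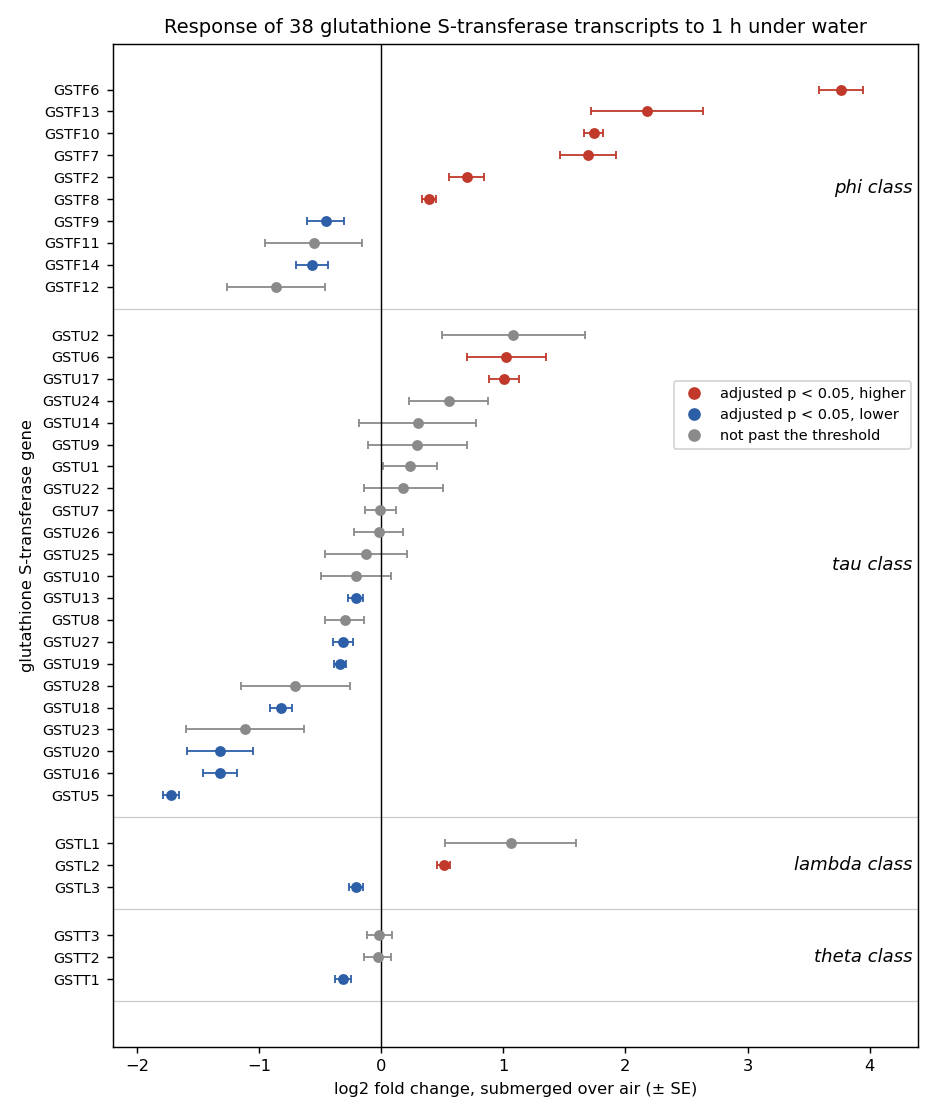
The log2 fold change of each tested member, submerged over air, is plotted with its standard error, grouped by class and ordered by size within it. Red and blue points passed an adjusted p of 0.05. GSTF6 stands highest at 3.77 and GSTU5 lowest at -1.72.

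In the phi class, 6 of 10 tested genes rose, 2 fell and 2 did not pass, with a median log2 fold change of 0.54. Thus 60% rose and 20% fell, against 28.8% and 26.1% of all genes tested. GSTF6, which takes part in making the defence compound camalexin, had 50.9, 64.4 and 86.4 CPM (counts scaled to library size) in submerged seedlings, against 4.91, 4.56 and 5.26 CPM in air. The groups lay far apart, a 13.6-fold difference (log2 3.77 ± 0.18 SE, adjusted p = 2.17e-09). Its near copy GSTF7 had 15.2, 16.1 and 23.3 CPM in submerged seedlings and 5.53, 7.67 and 3.54 CPM in air, again without overlap (log2 1.69 ± 0.23, adjusted p = 3.95e-05). The coding sequences of the pair are 94.3% identical, with 116 bases as their longest shared run, so reads could be split between them. Their first 90 coding bases show how alike they are, with the 1 differing base in capitals.
GSTF6: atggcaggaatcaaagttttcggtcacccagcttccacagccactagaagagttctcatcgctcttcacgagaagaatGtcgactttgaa
GSTF7: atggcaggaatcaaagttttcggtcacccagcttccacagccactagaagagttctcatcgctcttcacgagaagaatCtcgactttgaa

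GSTF10, also known as ERD13 from its induction by dehydration, had 663, 663 and 583 CPM in submerged seedlings, against 170.3, 196 and 205 CPM in air. All submerged libraries were above all air libraries, and the mean was 3.35-fold higher under water (log2 1.74 ± 0.08, adjusted p = 1.12e-09). GSTF8, a marker of oxidative stress, averaged 153 ± 7.21 CPM in submerged seedlings and 117 ± 5.80 CPM in air (SD, n = 3 each; log2 0.39 ± 0.06, adjusted p = 0.000111). GSTF2, which binds indole compounds such as camalexin, had 26.8, 30.9 and 42.9 CPM in submerged seedlings and 20.2, 21.7 and 19.7 CPM in air. The groups did not overlap (log2 0.70 ± 0.14, adjusted p = 0.000971). Its coding sequence is 94.5% identical to that of GSTF3, so reads could be split between them. GSTF2 shares 890 of its 1471 exon bases with AT4G02510 on the opposite strand, and whether reads were counted by strand is not stated in these sources. AT4G02510 went the other way, with 264 CPM on average in submerged seedlings and 369 CPM in air (log2 -0.48 ± 0.05, adjusted p = 7.98e-06). GSTF13 was scarce, at 1.69, 2.27 and 1.76 CPM in submerged seedlings and 0.307, 0.752 and 0.197 CPM in air (log2 2.18 ± 0.46, adjusted p = 0.0014). Its estimate depended on air replicate 2, without which the log2 fold change was 2.86.

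GSTF14 and GSTF9 were the phi genes that fell. GSTF14 averaged 11.0 ± 1.95 CPM in submerged seedlings and 16.2 ± 1.10 CPM in air (SD, n = 3 each; log2 -0.57 ± 0.13, adjusted p = 0.00234). GSTF9, which is linked with glucosinolate metabolism, had 478, 429.6 and 309.8 CPM in submerged seedlings, against 465, 513 and 692 CPM in air. Submerged replicate 1 lay above air replicate 1, so the groups overlapped (log2 -0.46 ± 0.15, adjusted p = 0.0233). The call was lost without air replicate 3 (log2 -0.27, adjusted p = 0.117), without submerged replicate 3 (log2 -0.29, adjusted p = 0.0624) and in DESeq2's test (log2 -0.47, adjusted p = 0.0971). GSTF12, the TRANSPARENT TESTA 19 gene of anthocyanin transport, averaged only 0.624 CPM in submerged seedlings and 1.16 CPM in air (log2 -0.86 ± 0.40, adjusted p = 0.0871). It shares 108 of its 1096 exon bases with AT5G17230 on the opposite strand. That gene averaged 204 CPM in submerged seedlings and 268 CPM in air (log2 -0.40 ± 0.06, adjusted p = 0.000108). GSTF11, also linked with glucosinolates, had 6.01, 7.31 and 1.45 CPM in submerged seedlings and 5.03, 7.34 and 9.79 CPM in air. Its groups overlapped (log2 -0.55 ± 0.40, adjusted p = 0.262), and all 934 of its exon bases are shared with AT3G03200 on the opposite strand.

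**Figure D2:**
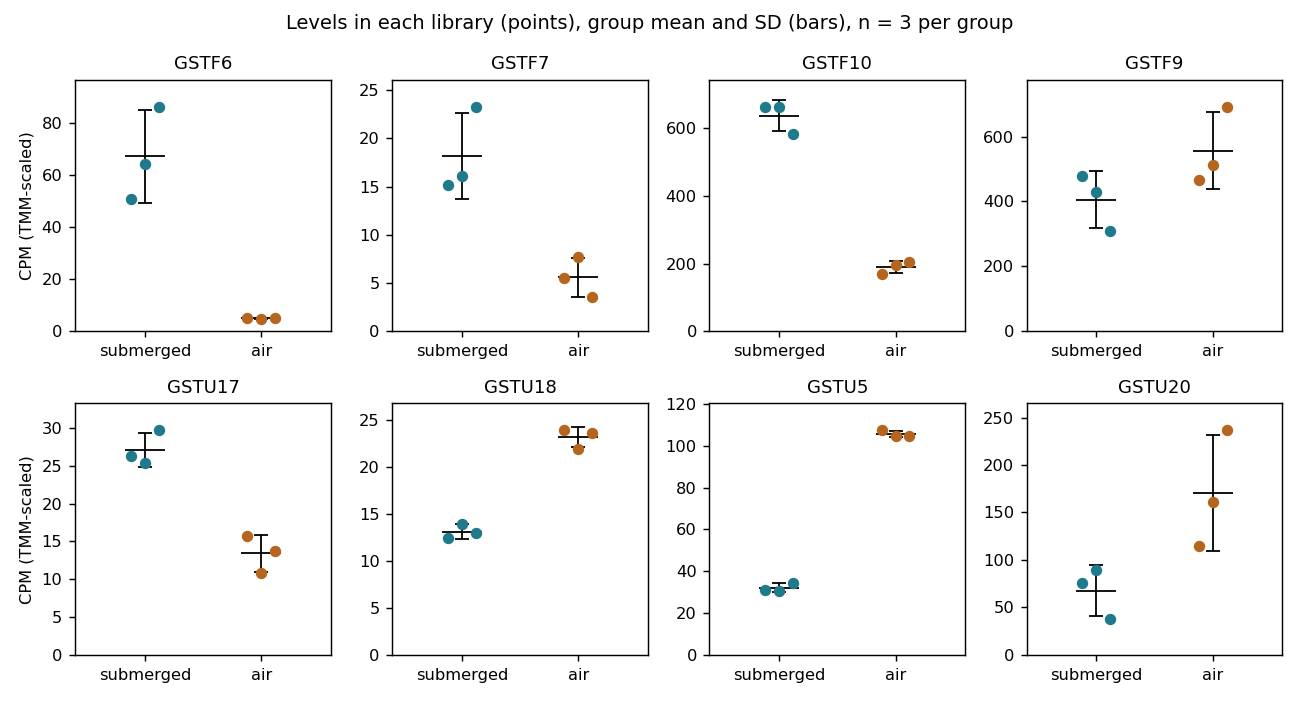
CPM in each library for 8 members, scaled with TMM factors, with points for libraries and bars for the mean and SD of 3 libraries per group. Submerged and air libraries separate for GSTF6, GSTF7, GSTF10, GSTU17, GSTU18, GSTU5 and GSTU20 and overlap for GSTF9.

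In the tau class, 2 of 22 tested genes rose, 7 fell and 13 did not pass, with a median log2 fold change of -0.16. The share that fell, 31.8%, was near the 26.1% of all genes tested, while 9.09% rose against 28.8%. That nearness depended on the filter. With at least 5 CPM in 3 libraries, 7 of 12 tested tau genes fell and 1 rose. Among all 15125 genes tested with that filter, 4750 fell and 4991 rose. GSTU17, also known as ERD9 and linked with light signalling and drought, had 26.3, 25.4 and 29.7 CPM in submerged seedlings, against 15.7, 10.8 and 13.8 CPM in air. Every submerged library was above every air library (2.01-fold; log2 1.01 ± 0.12, adjusted p = 1.51e-05). GSTU6 had 3.95, 4.27 and 2.48 CPM in submerged seedlings and 1.61, 2.54 and 1.13 CPM in air, with a slight overlap (log2 1.02 ± 0.32, adjusted p = 0.017). Its call was lost without air replicate 1 (adjusted p = 0.0560), air replicate 3 (0.0564), submerged replicate 1 (0.0635) or submerged replicate 2 (0.0782), all in edgeR.

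GSTU5 fell the most of all members. It had 31.2, 30.6 and 34.5 CPM in submerged seedlings, against 107, 105 and 105 CPM in air. The libraries of each group lay close together and far from the other group (3.30-fold lower under water; log2 -1.72 ± 0.06, adjusted p = 2.01e-10). GSTU16 had 4.73, 4.86 and 5.73 CPM in submerged seedlings and 13.2, 13.4 and 11.5 CPM in air (log2 -1.32 ± 0.14, adjusted p = 3.26e-06). GSTU20, linked with glucosinolate synthesis, fell to 75.7, 89.7 and 38.2 CPM in submerged seedlings, against 115, 161 and 236 CPM in air. These groups did not overlap but spread widely (log2 -1.32 ± 0.27, adjusted p = 0.00112).

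The remaining tau falls were smaller. GSTU18 averaged 13.1 ± 0.763 CPM in submerged seedlings and 23.1 ± 1.06 CPM in air (log2 -0.82 ± 0.09, adjusted p = 5.79e-06; SD, n = 3 each). GSTU19, the most abundant tau transcript, had 216, 219 and 217 CPM in submerged seedlings and 269.9, 269 and 285 CPM in air. The libraries of each group lay close together and the groups did not overlap (log2 -0.34 ± 0.05, adjusted p = 0.000117). GSTU27 had 17.8, 19.4 and 19.2 CPM in submerged seedlings and 22.2, 24.3 and 23.8 CPM in air (log2 -0.32 ± 0.08, adjusted p = 0.00583). GSTU13, which belongs to the indole glucosinolate pathway, fell by 0.21 on the log2 scale (adjusted p = 0.0115). The GSTU13 call was lost without air replicate 2 (log2 -0.17, adjusted p = 0.0506) or submerged replicate 1 (log2 -0.19, adjusted p = 0.0501).

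GSTF9, GSTF11 and GSTU20 were each lowest in submerged replicate 3 within the submerged group and highest in air replicate 3 within the air group. Submerged replicate 3 was above the mean of the other submerged libraries for 15 of the 38 tested members, and air replicate 3 above its group for 18 of 38. Root marker genes, summed, had 40.2, 34.6 and 29.6 CPM in submerged seedlings and 29.9, 42.5 and 16.4 CPM in air, so air replicate 3 was the lowest library. Summed leaf markers had 15958, 15519 and 17469 CPM in submerged seedlings and 19538, 18030 and 19388 CPM in air. Of the tested markers, 1 of 14 root genes rose and 0 fell, while 0 of 8 leaf genes rose and 5 fell. Thus 7.14% of root genes rose, against 28.8% of all genes tested, and 62.5% of leaf genes fell, against 26.1%. Without air replicate 2, 4 root genes rose. No root gene rose without air replicate 1 or 3 or submerged replicate 1 or 3. The same held in DESeq2's test, with halved counts and with no filter on low counts. With at least 5 CPM in 3 libraries, 2 root genes were tested and 0 rose. With upper-quartile scaling, 8 leaf genes fell. The part of tissue makeup in the members' differences was not tested.

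The lambda class held 1 rise and 1 fall among 3 tested genes, and the theta class 1 fall among 3. For all genes tested, the shares that rose and fell were 28.8% and 26.1%. Among the lambda genes, which transfer thiols through a catalytic cysteine, GSTL2 had 93.0, 93.1 and 92.1 CPM in submerged seedlings, against 67.1, 63.3 and 64.7 CPM in air (log2 0.51 ± 0.05, adjusted p = 3.96e-06). GSTL2 shares 116 of its 1100 exon bases with AT3G55030 on the opposite strand, which also rose (log2 0.39 ± 0.10, adjusted p = 0.00538). GSTL3 went the other way, with 119.8, 118 and 130.5 CPM in submerged seedlings and 143, 140.3 and 142 CPM in air (log2 -0.21 ± 0.06, adjusted p = 0.0075). GSTL1 had 1.25, 3.31 and 1.70 CPM in submerged seedlings and 0.845, 1.83 and 0.295 CPM in air, with overlap (log2 1.06 ± 0.54, adjusted p = 0.114). Without air replicate 2 it passed (log2 1.81, adjusted p = 0.0188). Of the theta genes, whose proteins are peroxisomal and have peroxidase activity, GSTT1 averaged 48.1 ± 2.54 CPM in submerged seedlings and 59.7 ± 3.32 CPM in air (SD, n = 3 each; log2 -0.31 ± 0.07, adjusted p = 0.00132). GSTT2 had 14.1, 14.6 and 11.6 CPM in submerged seedlings and 13.7, 13.7 and 13.9 CPM in air (log2 -0.03 ± 0.11, adjusted p = 0.836). GSTT3 had 17.5, 15.5 and 15.3 CPM in submerged seedlings and 17.2, 14.5 and 17.2 CPM in air (log2 -0.02 ± 0.10, adjusted p = 0.911). Their approximate 95% intervals of the log2 fold change ran from -0.25 to 0.19 and from -0.22 to 0.19. These use the SE and a normal distribution, which makes them too narrow with 3 libraries per group. The coding sequences of GSTT2 and GSTT3 are 91.2% identical.

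Summed over each class, phi transcripts reached 1398, 1385 and 1217 CPM in submerged seedlings, against 812, 884 and 1066 CPM in air, a ratio of means of 1.45. Tau transcripts summed to 486, 502 and 446 CPM in submerged seedlings, against 666, 718 and 794 CPM in air, a ratio of 0.659. Neither class overlapped between the groups. The difference in the phi sum rested on GSTF10. Without it, a sum chosen after the values were seen, phi transcripts had 735, 721 and 634 CPM in submerged seedlings and 641, 688 and 862 CPM in air, a ratio of 0.954 with overlapping libraries. That remainder was led by GSTF9, which was called lower. GSTF9 averaged 406 of its 697 CPM in submerged seedlings and 557 of its 730 CPM in air. The ratio of 0.954 therefore does not describe the less abundant phi genes, most of the tested ones of which were called higher. Without GSTU20, the tau member whose CPM changed most, the tau ratio was 0.739. The sum over all members was 2107 ± 122 CPM in submerged seedlings and 1944 ± 198 CPM in air (SD, n = 3 each), a ratio of 1.08 with overlapping libraries. The difference between the classes was not tested.

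**Figure D3:**
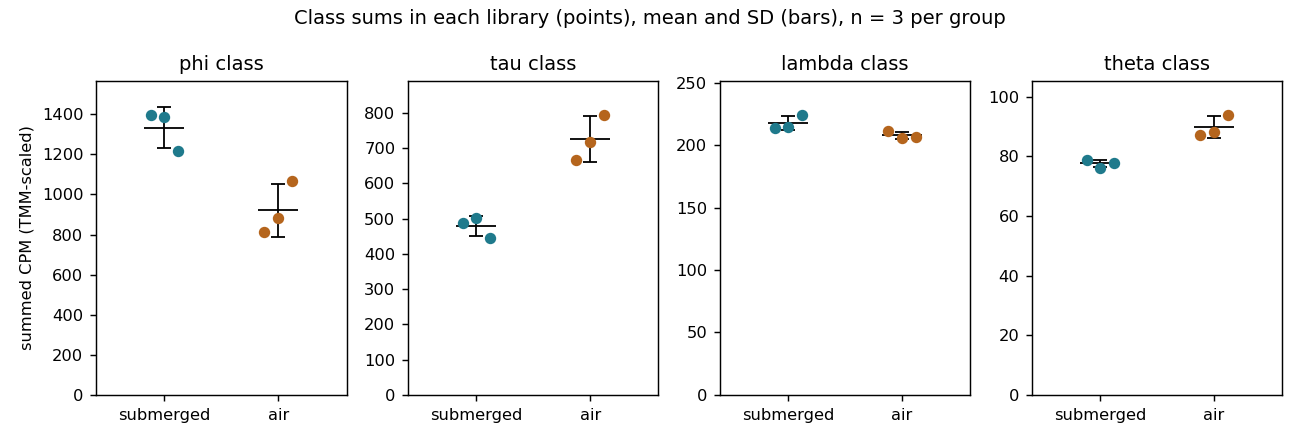
Summed CPM of each class in each library, scaled with TMM factors, with points for libraries and bars for the mean and SD of 3 libraries per group. The phi sums averaged 1333 CPM in submerged seedlings against 921 CPM in air, and the tau sums 478 CPM against 726 CPM.

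Levels of different genes were compared in the deposited TPM, which accounts for transcript length. GSTF10 averaged 924 ± 85.2 TPM in submerged seedlings and 276 ± 27.3 TPM in air (SD, n = 3 each). That was 32.5% of the family's TPM in submerged seedlings and 10.6% in air, and its rank was 1 under water against 3 in air. GSTF9 ranked 2 in submerged seedlings at 542 ± 125 TPM and 1 in air at 739 ± 152 TPM. GSTU19 followed with 319 ± 7.57 TPM in submerged seedlings and 402 ± 10.2 TPM in air. GSTF6 ranked 8 with 92.7 ± 22.7 TPM in submerged seedlings and 25 with 6.78 ± 0.371 TPM in air. GSTU5 ranked 11 under water and 6 in air.

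Many of these genes stand side by side on the chromosomes. With at most 1 other protein-coding gene between them, 29 members form 10 groups of neighbours, and 3 groups hold calls in both directions. The group with GSTU5 and GSTU6 has 7 members. Among all genes tested, 28.8% rose and 26.1% fell, and how often other neighbouring genes were called in opposite directions was not counted. In the GSTF9 and GSTF10 pair, the count ratio of GSTF10 to GSTF9 was 1.39, 1.54 and 1.88 in submerged seedlings, against 0.366, 0.382 and 0.296 in air. GSTF10 was thus the larger of the pair in every submerged library and the smaller in every air library. The ratio of GSTU17 to GSTU18 was 2.12, 1.82 and 2.28 in submerged seedlings and 0.658, 0.494 and 0.583 in air. The ratio of GSTU6 to GSTU5 was 0.127, 0.139 and 0.0719 in submerged seedlings and 0.0150, 0.0242 and 0.0108 in air. GSTF6 and GSTF7, which both rose, also changed in ratio, with 3.35, 4.01 and 3.71 in submerged seedlings and 0.889, 0.595 and 1.49 in air. Library scaling cancels in these ratios. For each of the 4 ratios, chosen after their values were seen, an exact two-sided permutation test gave p = 0.1, the smallest that 3 libraries against 3 allow, and 0.1 after Benjamini-Hochberg adjustment. Coding identity is 77.6% for GSTF10 and GSTF9, 81.6% for GSTU17 and GSTU18 and 83.6% for GSTU5 and GSTU6. GSTU17 and GSTU18 share 71 exon bases, and GSTU6 shares 398 of its 1333 exon bases with AT2G29430 on the opposite strand, which has no count in either group.

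**Figure D4:**
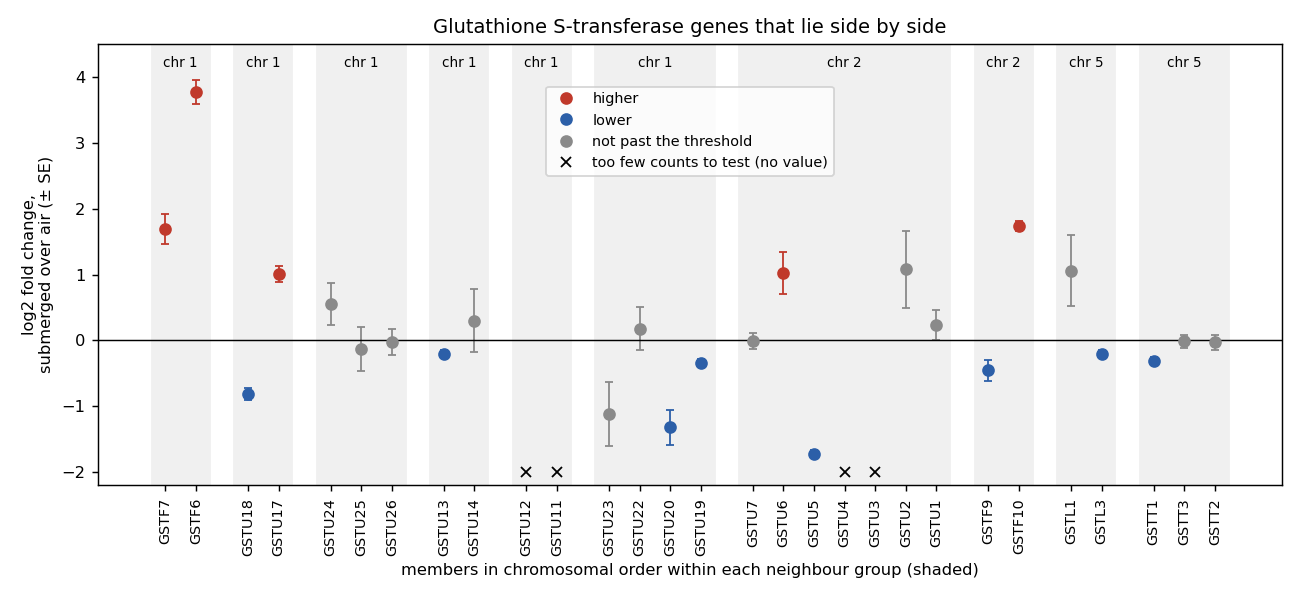
Log2 fold change, submerged over air, with its standard error for 29 members in 10 groups of neighbours (shaded), in chromosomal order. Red points rose, blue points fell, grey points did not pass, and crosses mark members with too few counts. GSTF9 and GSTF10 stand on opposite sides of 0, as do GSTU18 and GSTU17, and GSTU6 and GSTU5.

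The 18 tested members that did not pass had log2 fold changes from -1.12 (GSTU23) to 1.08 (GSTU2), and 11 of them were under 5 CPM in both groups. Their approximate 95% intervals, computed as for GSTT2 and GSTT3, differed in width. The furthest bounds were -2.06, for GSTU23, and 2.23, for GSTU2, both scarce. For GSTU7 the interval ran only from -0.26 to 0.24. Changes within a member's own interval are not excluded for that member. A further 7 members had too few counts to test. GSTU11 had 12, 6 and 30 counts in submerged seedlings, against 0, 2 and 0 in air, a depth-adjusted ratio of 22.9 (95% exact binomial interval 3.73 to 940.0 on halved counts, covering counting error only). GSTZ2, of the zeta class that isomerises maleylacetoacetate in tyrosine breakdown, had 9, 2 and 1 counts in submerged seedlings and 4, 6 and 9 in air (ratio 0.602, interval 0.171 to 1.74). GSTF3 (ratio 1.32, interval 0.491 to 3.41) and GSTU4 (ratio 1.43, interval 0.537 to 4.03) had intervals that span 1. GSTU12 had 2, 2 and 2 counts in submerged seedlings and 0 in air, and GSTU15 had 0 in submerged seedlings and 2, 0 and 0 in air. GSTU3 had no count. A sum of 6 counts in a group was taken as the floor of detection.

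Genes that make, break down or use glutathione moved in both directions. Of 15 tested genes of glutathione synthesis and turnover, 8 rose and 3 fell (median log2 fold change 0.21, against 0.01 over all genes). For this list and those that follow, 28.8% of all genes tested rose and 26.1% fell. The rises included PCS1, which makes phytochelatins (log2 1.55), and both synthesis genes, GSH1 (0.21) and GSH2 (0.39). GGCT2;1, which degrades glutathione, also rose (1.48) but was scarce, at 2.63 CPM in submerged seedlings and 0.953 CPM in air. The 3 falls were GGCT2;2 (-0.75), OXP1 (-0.45) and GGT4 (-0.38). With upper-quartile scaling 4 rose and 5 fell. Of 15 genes of sulfur supply, 6 rose, including the APS reductase genes APR2 (1.03) and APR3 (0.88), and 2 fell, SULTR2;1 (-0.68) and OASB (-0.41). Of 12 tested as-1 binding factors and partners, 4 rose, which were NAC032 (0.88), NPR1 (0.64), TGA4 (0.28) and TGA3 (0.21), and 0 fell; 2 rose with upper-quartile scaling, without air replicate 1 or without submerged replicate 3, and 1 fell with that scaling or without air replicate 2.

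Among 16 other detoxification genes, 6 rose and 4 fell (median 0.29). The oxophytodienoate reductase gene OPR1 averaged 178 CPM in submerged seedlings and 28.6 CPM in air (log2 2.64), and OPR2 and the vacuolar conjugate transporter gene ABCC3 also rose (1.64 and 0.98). UGT75B1 (-1.75), CYP81D11 (-1.03) and ABCC1 (-0.37) fell. Of 7 glutathione peroxidase-like genes, 3 rose (GPX5, 0.66; GPX7, 0.59; GPX6, 0.42) and 3 fell (GPX1, -0.55; GPX3, -0.31; GPX2, -0.15), and 1 fell without air replicate 1 or submerged replicate 2. Of 7 other genes of the glutathione S-transferase fold, MGST (0.27) and EF1G1 (0.26) rose, and the dehydroascorbate reductase genes DHAR1 (-0.78) and DHAR3 (-0.19) fell. There, 1 fell without air replicate 1, submerged replicate 1 or submerged replicate 2.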

How the data were processed

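The authors deposited whole-number counts, RPKM, TPM and a CPM-like signal for 27655 genes and 6 libraries, per the file headers. Per the submitters' processing notes the build is TAIR10. No source used here gives the aligner, the counter or the strand setting. A separate table of the authors' own comparison was also deposited. In the authors' deposited table, 20 of the 20 members called here were under a false discovery rate of 0.05 with the same sign, and 0 of the 18 uncalled ones were. Among the members with too few counts to test here, GSTU11 alone was under that rate there (log2 4.38, false discovery rate 0.000535).

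Tests on counts used R 4.3.3 and edgeR 4.0.16 (TMM factors, filterByExpr with a minimum count of 10 and total of 15, quasi-likelihood F test, Benjamini-Hochberg adjustment over 19495 genes). Every adjusted p is from this test unless DESeq2 (1.42.0) or limma voom (3.58.1) is named. CPM was computed here from counts and TMM factors. The deposited RPKM served to check exon lengths, which matched TAIR10.1 within 1% for 99.3% of 18459 genes. Between 85.8% and 87.4% of counts from 1 to 20 were even, so low counts were read as pairs, and the floor of 6 counts is 3 read pairs. Sequences come from the TAIR10.1 assembly.

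Members and gene lists were chosen with earlier results of these data known. Named with full values were up to 8 called rises and 8 falls, without overlap and at 5 CPM or more in the higher group, the 3 highest by TPM and all lambda, theta and zeta genes. Others were chosen after their values were seen. The procedure was tested on simulated data.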

Additional observations from a re-analysis of the deposited data

How the results depend on the processing

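Of the 20 called members, 17 passed in each of the 15 alternatives that tested them, 3 (GSTF9, GSTU13 and GSTU6) lost the call in at least 1, and none changed sign. The number of members that rose ranged from 7 to 11 and the number that fell from 10 to 13. Fold changes were followed over the alternatives for the 20 called members, GSTL1, GSTT2 and GSTT3. Those that changed sign were GSTT3 (log2 fold change 0.025 without air replicate 1, 0.020 without air replicate 3, 0.017 without submerged replicate 2 and 0.022 without submerged replicate 3) and GSTT2 (0.062 without submerged replicate 3). The log2 ratio of the class sums ranged from 0.41 to 0.65 for phi and from -0.72 to -0.53 for tau. Leaving out 1 library gave GSTT3 from -0.092 to 0.025 and GSTT2 from -0.086 to 0.062. Upper-quartile scaling moved the median of all genes by -0.12.

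In the labels, replicates of the 2 groups share only a number. The correlations of same-numbered libraries' deviations from their group means were -0.08, 0.05 and 0.01. Those of differently numbered libraries ran from -0.15 to 0.16, so these values do not settle whether the libraries were paired. With the replicate number as a block, 10 members rose and 10 fell, GSTF9 did not pass (adjusted p = 0.0619) and GSTL1 did (log2 1.15, adjusted p = 0.0474). Depth limits the scarce members most, and 7 could not be tested. With no filter on low counts 10 rose and 11 fell, and with at least 5 CPM in 3 libraries 7 rose and 11 fell of 25 tested.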
